A study of Mus musculus with 2 samples.

Results

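Genes of the solute carrier families that move glucose, lactate and amino acids across membranes were examined in EpiSC (epiblast stem cells) of the mouse, a pluripotent cell type resembling the postimplantation epiblast. Every non-control spot was taken whose gene name was that of an Slc1, Slc2, Slc7, Slc16 or Slc38 member. This gave 104 spots per array, 77 probes and 59 genes, of 22753 genes on the array. EpiSC clone 2 and EpiSC clone 1, both wildtype, female, of C57BL/6 background and at passage 9, were profiled with 1 array each. Each group is therefore 1 clone read on 1 array, and differences between them have no replicate check. Per the labels, trypsin was used to collect the cells, and 0.2 ug of RNA was labelled with Cy3. The arrays were made to set these lines beside EpiSC described earlier.

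Slc2 proteins (GLUT) let hexoses pass down their gradient, and Slc16 proteins (MCT) carry lactate, pyruvate and other monocarboxylates. Slc1 holds the sodium-driven glutamate transporters and the neutral amino acid exchangers, Slc7 the cationic amino acid transporters and the light chains of heteromeric exchangers, and Slc38 the sodium-coupled carriers of glutamine and small neutral amino acids. Pluripotent cells are known for a high glycolytic flux with release of lactate, and for a strong need for glutamine and other amino acids.

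The differences of 2-fold or more came from 4 genes, each read by 1 probe on 1 spot. The first 30 bases of these 60-base probes are shown, because each of these values rests on that oligonucleotide alone. Positions are on mm9, and whether they are exonic or in a UTR was not annotated here.
Slc2a5, chr4:149517775-149517804, plus strand: aggccatttgcgaagacacactgagcgtgg
Slc16a11, chr11:70029853-70029882, plus strand: ggataccacttgttgatcattttcttggtt
Slc38a4, chr15:96825512-96825541, minus strand: ctaacctggaagtatccacttgtgtagtta
Slc38a7, chr8:98360104-98360133, minus strand: agcatccagacttgctgaattgttgttctc

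Each signal is the log2 of the processed intensity minus that of the array's 75th percentile, so 0 is the brightness of a probe at that percentile. A signal is compared between clones for the same probe only, since probes differ in how brightly they read. Probes printed many times gave the technical noise. For a single spot on each array, it came to an SD of the difference between clones of 0.10 log2 at signals of at least -2 (181 probes) and of 0.17 below -2 (45 probes). The average of a probe's signals on both arrays set its class. This noise covers the spots and not the cultures, RNA or labelling. The median of the negative controls was a processed signal of 7.13 in clone 2 and 7.96 in clone 1. No transporter spot was saturated, and 1 spot of Slc2a4 was left out as an outlier in clone 2.

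Of the 59 transporter genes, 34 were detected on both arrays (57.6%, against 61.3% of all genes). A further 2 were detected in clone 2 only (2.58% of all genes were), 2 in clone 1 only (2.32% of all genes) and 21 in neither. The largest share was in Slc38, with 8 of 11 genes on both arrays, and the smallest in Slc7, with 7 of 15. Slc2 had 7 of 12, Slc16 8 of 14 and Slc1 4 of 7. Among the 34 measured genes, 15 were higher and 19 lower in clone 2, while 56.9% of all measured genes were higher there. At the 2-fold mark, 1 was higher in clone 2 (1.51% of all genes) and 1 higher in clone 1 (1.04% of all genes). At 1.5-fold there were 3 and 1, against 5.76% and 3.32% of all genes. Differences beyond 2 SD of the spot noise were seen for 19 of the 34, and for 43% of all genes. The median difference of the transporters was -0.08, against 0.05 for all genes.

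**Figure D1:**
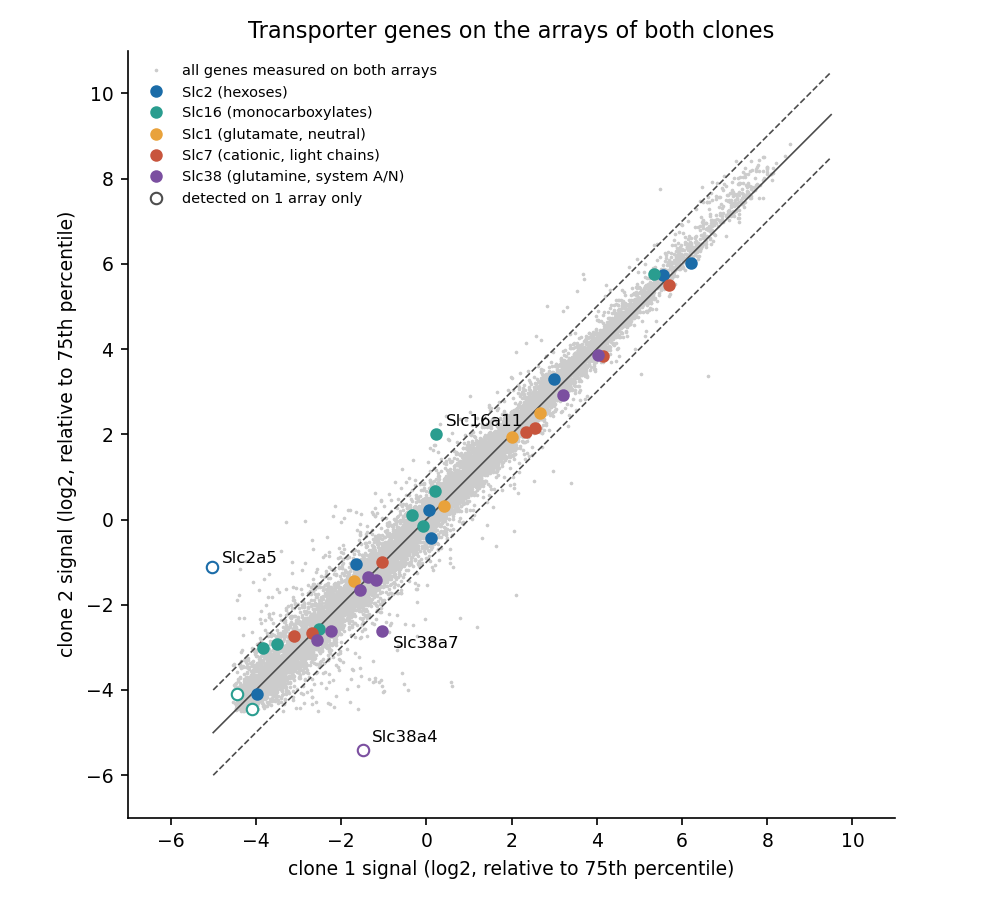
Signal of each gene in clone 2 (vertical axis) against clone 1 (horizontal axis), both on the log2 scale with the array's 75th percentile at 0. Grey points are all genes measured on both arrays, filled circles are transporters measured on both, open circles are transporters detected on 1 array. The solid line marks equality and the dashed lines 2-fold. Slc16a11 and Slc38a7 lie outside the dashed lines, as do the open circles of Slc2a5 and Slc38a4.

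The scaling affects small differences of bright genes. Over all measured genes, the median difference was -0.01 for the 3289 genes with signals below -2 and 0.14 for the 1306 genes with signals of at least 4. With quantile normalization these medians were 0.02 and -0.02, and with the authors' deposited values 0.02 and -0.03. The 4 transporters in the brightest class were Slc2a1, Slc2a3, Slc7a3 and Slc16a3.

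Glucose entry was represented by both high-affinity carriers. Slc2a1 (GLUT1), the glucose carrier of most dividing cells, read 5.74 in clone 2 and 5.54 in clone 1. The difference of 0.19 was 0.035 with quantile normalization and 0.015 with the authors' deposited values. Slc2a3 (GLUT3), a high-affinity carrier of neurons and early embryos, had 6.01 in clone 2 and 6.22 in clone 1. Its difference of -0.20 was 2.10 times the noise SD, and was -0.39 and -0.42 under those scalings. Both carriers were thus well above background in both clones, and neither was 1.5-fold apart.

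Slc2a4 (GLUT4), the insulin-responsive carrier of muscle and fat, was read by a probe printed on 10 spots. Its spot signals ran from -1.16 to -0.97 with a median of -1.03 in clone 2 (9 spots), against -1.84 to -1.56 with a median of -1.61 in clone 1 (10 spots). The spots of the 2 clones did not overlap. The means differed by 0.62, with spot SDs of 0.06 in clone 2 and 0.10 in clone 1. These spots are technical repeats on 1 array each and say nothing of the spread between cultures.

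**Figure D2:**
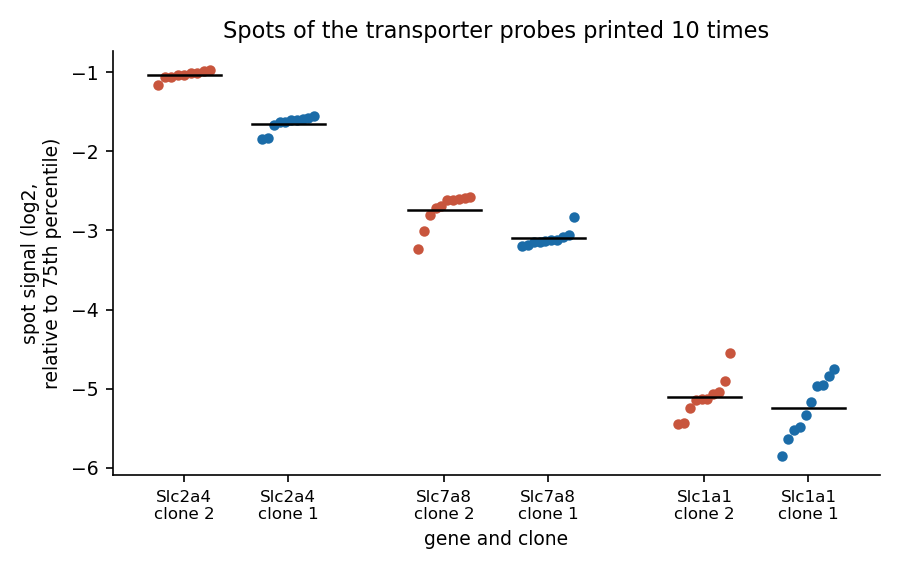
Signal of each spot (log2, relative to the 75th percentile) for the 3 transporter probes printed 10 times, clone 2 in red left of clone 1 in blue, with the mean as a line and points sorted by value. For Slc2a4 every spot of clone 2 (-1.16 or higher) lies above every spot of clone 1 (-1.56 or lower). For Slc7a8 and Slc1a1 the spots of the clones overlap.

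Slc2a5 (GLUT5), the fructose carrier of intestine, read -1.12 in clone 2 and -5.04 in clone 1, where it was not well above background. The processed signals were 335 in clone 2 and 24.9 in clone 1. Slc2a5 was at least 10.8-fold higher in clone 2. Among the 587 genes detected in clone 2 only, 21.6% had a bound of at least 2-fold. None of the 4 neighbouring spots measured on both arrays was 2-fold apart in the same direction. Most genes pass this check: 13399 of the 13928 measured genes remained when spots with such a neighbour were left out. Normexp background correction gave a bound of 2.09 log2 in place of 3.43. It was run with an offset of 50 added to every spot, which shrinks log2 differences of dim spots.

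The other Slc2 members were closer together. Slc2a6, a lysosomal hexose transporter, had -0.44 in clone 2 and 0.10 in clone 1, a difference of -0.54, and its second probe had -3.81 and -3.18, a difference of -0.63. Slc2a8, an intracellular hexose carrier, had 3.31 and 3.002. Slc2a12 had 0.23 and 0.06, and Slc2a10 had -4.09 and -3.98. The spots of Slc2a8, Slc2a12 and the dimmer Slc2a6 probe each had 1 neighbouring spot 2-fold apart in the same direction. Slc2a2 (GLUT2), the carrier of liver and beta cells, was on neither array well above background, and the same held for Slc2a7, Slc2a9, a urate transporter, and Slc2a13, a myo-inositol symporter. The median of the 7 measured Slc2 genes was 0.17, and -0.11 when spots with a 2-fold neighbour were left out.

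The 3 lactate carriers measured on both arrays, Slc16a3, Slc16a1 and Slc16a8, read higher in clone 2, as did 56.9% of all measured genes. Slc16a3 (MCT4), which exports lactate from glycolytic cells, had 5.77 in clone 2 and 5.34 in clone 1 by one probe, and 5.66 and 5.19 by another. The differences were 0.43 and 0.47, and 0.26 by the first probe with the authors' deposited values. These probes are almost the same oligonucleotide, so they are no independent readings. They share 53 of 60 bases. In the first 30 bases of each, read on the plus strand in mm9, capitals mark the shared stretch.
Slc16a3, first probe, chr11:120820023-120820052: ctgggcaGTGGTCTGTTCACCCTGAGTCCC
Slc16a3, second probe, chr11:120820030-120820059: GTGGTCTGTTCACCCTGAGTCCCacccttt

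Slc16a1 (MCT1), the widely expressed lactate and pyruvate carrier, had -2.93 in clone 2 and -3.51 in clone 1. Its difference was 0.58 beside a noise SD of 0.17, at a spot with 1 neighbour 2-fold apart in the same direction. Slc16a8 (MCT3), the lactate carrier of the retinal pigment epithelium, had -3.02 and -3.84, a difference of 0.82 at a spot with such a neighbour too. With detection by the negative controls plus 2 SD, Slc16a8 was not detected in clone 1. Slc16a7 (MCT2), a high-affinity pyruvate and lactate carrier, was not well above background by either probe of that name. These probes read -5.01 and -6.56 in clone 2 and -5.13 and -6.69 in clone 1. Probes with other names in the array files that RefSeq assigns to Slc16a7 fell outside the selection. They read -4.79 and -6.47 in clone 2 and -6.81 and -6.55 in clone 1, not well above background on either array.

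Slc16a11, a family member linked to lipid metabolism and type 2 diabetes risk in humans, differed most among the measured Slc16 genes. It had 2.00 in clone 2 and 0.22 in clone 1, with processed signals of 2913 in clone 2 and 954 in clone 1. Slc16a11 was 3.44-fold higher in clone 2, and the difference of 1.78 log2 was 18.5 times the noise SD. It lay between 1.71 and 1.78 under all scalings and background corrections tried. None of the 3 neighbouring spots measured on both arrays was 2-fold apart in the same direction. The probes of Slc16a13 lie nearby on the opposite strand, at 70030354 and 70030487 on chromosome 11, and were higher in clone 2 by 0.18 and 0.46. Its brighter probe had 0.67 in clone 2 and 0.22 in clone 1.

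Slc16a6, a carrier of ketone bodies in zebrafish, had -0.16 in clone 2 and -0.07 in clone 1 by its brighter probe. Slc16a10 (TAT1), an aromatic amino acid transporter, had -2.57 and -2.52. Slc16a12, linked to creatine transport, was detected in clone 2 only with a bound of 0.35 log2, and Slc16a5 in clone 1 only with a bound of -0.35. With detection by the negative controls plus 2 SD, Slc16a5 was instead detected in clone 2 only. Slc16a4, Slc16a9 and Slc16a14 were detected in neither clone. The median of the 8 measured Slc16 genes was 0.46, and from 0.38 to 0.47 under the alternatives. Of these genes 6 were above 0, against 56.9% of all genes.

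**Figure D3:**
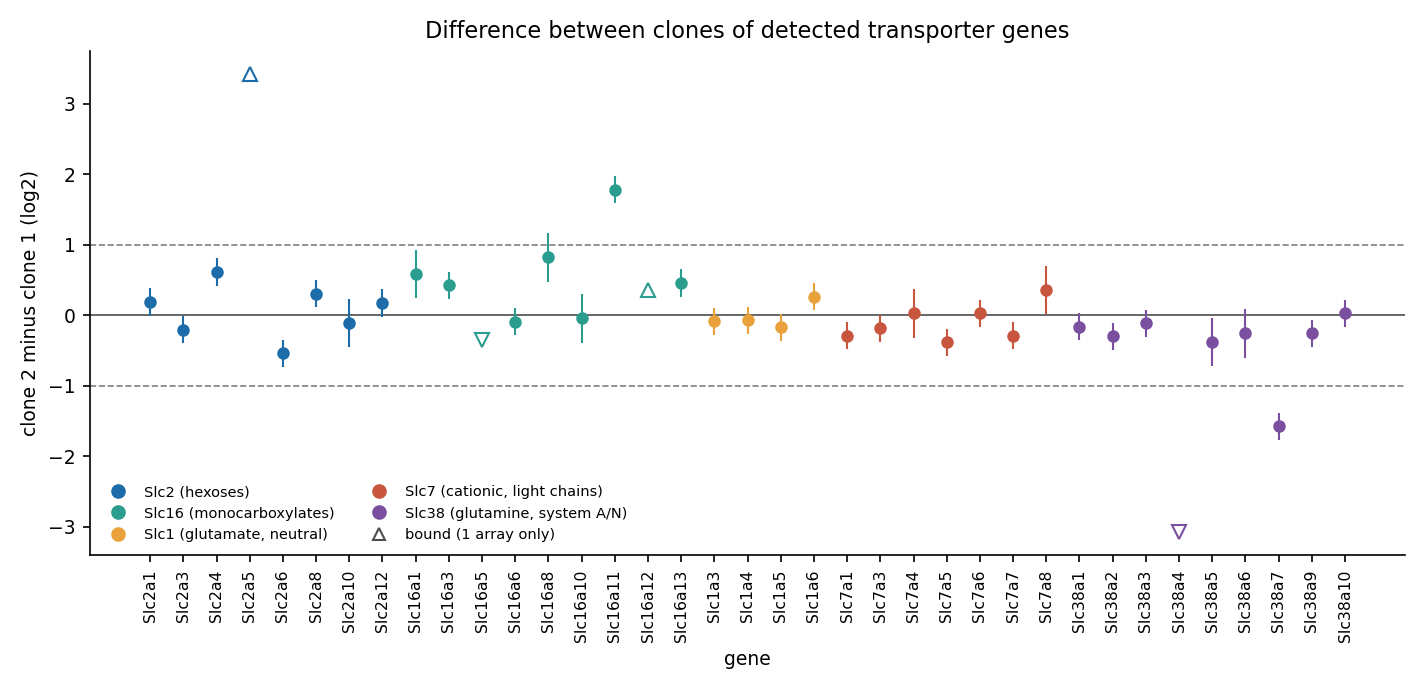
Difference between clones (log2, clone 2 minus clone 1) of the transporter genes detected on at least 1 array, all but 1 of them, grouped and coloured by family. Bars are 2 SD of the noise between spots on either side, triangles are lower bounds for genes detected on 1 array, and dashed lines mark 2-fold. Slc2a5 and Slc16a11 lie above the upper line and Slc38a7 and Slc38a4 below the lower one.

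Amino acid carriers were more often lower in clone 2. Of the 19 measured genes of Slc1, Slc7 and Slc38, 14 had a difference below 0, against 43.1% of all genes. Their median was -0.17. The share of all genes below 0 moved with the scaling. The count was 14 of 19 with quantile normalization (48.9% of all genes) and 14 with the authors' deposited values (49.4% of all genes). It was 17 with the percentile taken over detected probes (54.4% of all genes) and 11 with normexp correction (37.7% of all genes). Most of these differences were small, and 9 of the 19 exceeded 2 SD of the spot noise, as did 43% of all genes.

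In the Slc1 family, the neutral amino acid exchangers were measured in both clones. Slc1a5 (ASCT2), a major glutamine importer of dividing cells, had 2.51 in clone 2 and 2.68 in clone 1, and its second probe had 0.49 and 0.85. The differences were -0.17 and -0.35. Slc1a4 (ASCT1), an exchanger of alanine, serine and cysteine, had 1.94 and 2.01. Slc1a3 (GLAST), a glutamate transporter of glia, had 0.32 and 0.40, and Slc1a6, one of Purkinje cells, had -1.44 and -1.71. Slc1a1, Slc1a2 and Slc1a7 were on neither array well above background. For Slc1a1 this held for all 10 spots of its probe on both arrays.

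The cationic amino acid transporters Slc7a1 and Slc7a3 were measured in both clones. Slc7a1 (CAT1), the widespread arginine and lysine carrier, had 2.06 in clone 2 and 2.35 in clone 1, a difference of -0.29 that was 3.0 times the noise SD. Slc7a3 (CAT3), an X-linked relative found in early embryos and brain, had 5.51 and 5.70. Its difference of -0.19 was -0.36 with quantile normalization. Slc7a4, for which no such transport is established, had -2.66 and -2.68. Slc7a2 and Slc7a14 were not well above background.

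Light chains of the heteromeric exchangers pair with the heavy chains Slc3a2 or Slc3a1. Slc7a5 (LAT1), which takes up leucine and other large neutral amino acids, had 2.16 in clone 2 and 2.54 in clone 1 by its brighter probe. The other probe had -0.74 and -0.66. The difference was -0.38 by the brighter probe and -0.08 by the other, which lies upstream on the minus strand, from 124430996 to 124431055 on chromosome 8. Slc7a7 (y+LAT1), an exchanger of cationic for neutral amino acids, had 3.85 and 4.14. Its close relative Slc7a6 (y+LAT2) had -1.004 and -1.03.

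Slc7a8 (LAT2), another neutral amino acid exchanger, was read on 10 spots per array. They ran from -3.23 to -2.58 with a median of -2.66 in clone 2, and from -3.20 to -2.84 with a median of -3.13 in clone 1. The spots overlapped, and the means differed by 0.36. Slc7a11 (xCT), the cystine importer that supplies glutathione synthesis, read -6.67 in clone 2 and -5.53 in clone 1, well above background on neither array. Slc7a10, a neutral amino acid exchanger of brain, read -6.56 and -6.68. Slc7a9, Slc7a12, Slc7a13 and Slc7a15 were not well above background either, nor was Slc7a10. With the less strict flag for a positive and significant signal, Slc7a11 counted as detected on both arrays.

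The heavy chain Slc3a2 (CD98) had 5.13 in clone 2 and 5.42 in clone 1. Its difference was -0.29. Slc3a1, the heavy chain of the kidney exchanger, was not well above background. Of the chaperones that bring MCT proteins to the membrane, Bsg (basigin) had 2.37 and 2.47 and Emb (embigin) 3.93 and 3.92.

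Of the 8 measured Slc38 carriers, 7 were on the lower side in clone 2, as were 43.1% of all genes (54.4% with the percentile over detected probes). Slc38a1 (SNAT1), a system A glutamine carrier, had 3.87 in clone 2 and 4.03 in clone 1. Its other probes had -0.26 and -2.11 in clone 2 and -0.04 and -1.92 in clone 1. The 3 probes gave differences from -0.23 to -0.16. Slc38a2 (SNAT2), the system A carrier that responds to amino acid shortage, had 2.91 and 3.21, a difference of -0.30. Of the system N carriers, Slc38a3 had -1.66 and -1.55 and Slc38a5 had -2.61 and -2.23. Slc38a9, the lysosomal arginine sensor upstream of mTORC1, had -1.42 and -1.17. Slc38a6 had -2.82 and -2.56, and Slc38a10 had -1.35 and -1.38. The family median of -0.26 was -0.02 with normexp correction. Slc38a8 and Slc38a11 were detected in neither clone.

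Slc38a7 (SNAT7), a lysosomal exporter of glutamine and asparagine, had -2.61 in clone 2 and -1.04 in clone 1, with processed signals of 119 in clone 2 and 399 in clone 1. Slc38a7 was thus 2.98-fold higher in clone 1. The average over both arrays put it in the brighter noise class, although clone 2 read below -2. The difference of -1.57 log2 was 16.3 times the noise SD of that class. Neither of the 2 neighbouring spots measured on both arrays was 2-fold apart in the same direction. With normexp correction the difference was -0.69, which is under 2-fold. The offset of 50 in that correction is large beside a processed signal of 119 and by itself makes the difference smaller.

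Slc38a4 (SNAT4), a system A carrier that is imprinted in the mouse and strongly expressed in liver and placenta, had -5.41 in clone 2, not well above background, and -1.48 in clone 1. The processed signals were 17.0 in clone 2 and 294 in clone 1, and it was at least 8.43-fold higher in clone 1. Of the 529 genes detected in clone 1 only, 28% had a bound of at least 2-fold. With normexp correction and its offset of 50, which exceeds the signal of 17.0 in clone 2, the bound was -0.98 log2, under 2-fold. Slc38a4 lies on the same stretch of chromosome 15 as Slc38a2 and Slc38a1, whose probes start at 96518491 and 96406793 in mm9, while that of Slc38a4 starts at 96825482. The differences along this stretch were -0.16 for Slc38a1, -0.30 for Slc38a2 and a bound of -3.08 for Slc38a4. The probe of Slc2a7 lies near that of Slc2a5 on chromosome 4, at 149542484, and Slc2a7 was detected in neither clone.

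Where a gene had several probes detected on both arrays, they gave the same direction. This held for all 7 such genes, whose probes differed in their clone difference by at most 0.31 log2 (Slc7a5). For Slc16a3, which is among the 7, the shared direction is no check, because its probes are almost the same oligonucleotide. No transporter had measured probes whose clone differences were more than 1 log2 apart. The 4 genes past 2-fold had 1 probe each, so no second probe bears on them.

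The genes of the other pathway lists were all detected on both arrays, and none was 2-fold apart. All 16 glycolysis and lactate genes were detected on both arrays, 11 higher in clone 2 (68.8%, against 56.9% of all genes), with a median of 0.21 that was -0.00067 with quantile normalization. Pgk1, a glycolytic kinase, had 7.34 in clone 2 and 6.88 in clone 1. Ldha, the lactate dehydrogenase subunit of glycolytic cells, had 7.47 and 7.09, and Pdk1, a kinase that restrains pyruvate oxidation, had 0.31 and 0.68. All 11 genes of glutamine, serine and cystine use were detected, 9 higher in clone 2 (81.8%, against the same 56.9%), with a median of 0.17. This median fell to 0.056 after quantile normalization, to 0.039 by the authors' table and to 0.011 under normexp. The 56.9% covers genes of every brightness, while genes with signals of at least 4 had a median of 0.14 under the main scaling. For neither list is the count of higher genes given here under other scalings. Gclm, a subunit of the enzyme that limits glutathione synthesis, was higher in clone 2 (-0.86 in clone 2 and -1.35 in clone 1).

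The 12 regulators of transporter expression or trafficking were all detected and were split evenly, 6 higher and 6 lower in clone 2, with a median of 0.06. Atf4, the transcription factor of the amino acid response, had 7.07 in clone 2 and 7.32 in clone 1. Txnip and Arrdc4, arrestin-like proteins that promote the uptake of glucose carriers from the membrane, had differences of 0.32 and 0.43. Mycn had 0.43 and Myc -0.13. The 10 genes of amino acid sensing by mTORC1 and Gcn2 had 5 higher and 5 lower, with a median of 0.00067.

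Promoter sequences from RefSeq (GRCm38.p6, 250 bases before to 50 after the start) were found for 43 of the 59 genes, in 53 windows. They were searched on both strands for TGATGNAAN, a core of the amino acid response elements that Atf4 binds with its partners, because most amino acid carriers lay on one side. Of the 24 Slc1, Slc7 and Slc38 genes with a window, 3 held a match (12.5%). The share was 6.98% of all transporters with a window and 4.50% of all genes. The search followed from the direction seen in these same data, and a role of Atf4 was not tested. Atf4 differed by -0.25. Slc1a4 (-0.07, which is 0.71 times the noise SD) and Slc7a7 (-0.29) were the measured genes among the 3. The third, Slc7a11, was not well above background. Capitals mark the matches on either strand, and the window of Slc7a7 is 1 of 5 for that gene, of which another overlaps it and shares a match.
Slc1a4, chr11:20332664-20332963, minus strand: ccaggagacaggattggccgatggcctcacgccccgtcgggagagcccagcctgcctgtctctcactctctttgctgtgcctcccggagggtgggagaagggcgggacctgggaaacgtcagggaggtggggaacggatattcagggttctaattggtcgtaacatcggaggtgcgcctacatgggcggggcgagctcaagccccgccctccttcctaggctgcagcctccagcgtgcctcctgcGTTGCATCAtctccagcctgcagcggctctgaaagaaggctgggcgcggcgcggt
Slc7a7, chr14:54417895-54418194, minus strand: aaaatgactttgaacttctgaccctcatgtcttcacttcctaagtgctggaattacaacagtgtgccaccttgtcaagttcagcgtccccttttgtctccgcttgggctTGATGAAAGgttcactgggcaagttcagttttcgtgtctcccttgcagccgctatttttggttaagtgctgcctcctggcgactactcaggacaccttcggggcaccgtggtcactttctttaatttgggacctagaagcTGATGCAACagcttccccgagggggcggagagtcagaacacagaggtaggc
Slc7a11, chr3:50443564-50443863, minus strand: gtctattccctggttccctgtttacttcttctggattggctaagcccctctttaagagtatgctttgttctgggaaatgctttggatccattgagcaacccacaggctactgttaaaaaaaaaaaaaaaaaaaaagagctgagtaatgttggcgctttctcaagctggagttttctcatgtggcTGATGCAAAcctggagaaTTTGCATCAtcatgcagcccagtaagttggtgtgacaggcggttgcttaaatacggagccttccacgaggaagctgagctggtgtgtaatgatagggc

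The matches of the Slc7a11 window lie on opposite strands, at -66 and -48 from the start site. A match describes these letters and is no evidence of binding. The palindrome CACGTG, an E-box read by Myc and by the glucose-responsive Mlx partners, was in the windows of 7 of the 43 genes (16.3%, against 8.09% of all genes), Slc38a7 and Slc16a1 among them. The CG dinucleotide occurred 15 times in the window of Slc2a5, 20 times in that of Slc16a11, 10 times in that of Slc38a7 and 5 times in each of the 3 windows of Slc38a4. The median was 7 over all windows and 13 over those of the transporters. It was 15.5 over the windows of transporters detected on an array.

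Cell type markers were read on the same arrays. All 9 markers of the primed epiblast were detected in both clones, with differences from -0.35 to 0.43. Of the 6 naive markers, 4 were detected in neither clone, as were all 4 definitive endoderm markers. The other naive markers, Klf2 and Tbx3, were detected in both clones and were higher in clone 2, by 0.43 and 0.55. Of the 10 fibroblast or feeder markers, 9 had a value, and all 9 were detected in both clones, with differences from -0.17 to 0.30. Their summed linear signals were 92.7 in clone 2 and 84.4 in clone 1, relative to the 75th percentile. Macrophage and leukocyte markers had 4 of 6 detected on both arrays, with summed signals of 3.67 and 3.21. Csf1r, the macrophage growth factor receptor, had 0.48 in clone 2 and -0.35 in clone 1, a difference of 0.83. Lyz2, lysozyme of myeloid cells, had 0.20 and 0.44, a difference of -0.24, while Adgre1 and Cd14 differed by 0.06 and 0.13. Cd68 was detected in clone 2 only with a bound of 0.44, and Ptprc, the leukocyte antigen CD45, in clone 1 only with a bound of -0.62. The labels do not say whether feeder cells were used, and the part of other cells in the transporter values was not tested. In bulk RNA, fewer cells of a type and less RNA per cell cannot be told apart.

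**Figure D4:**
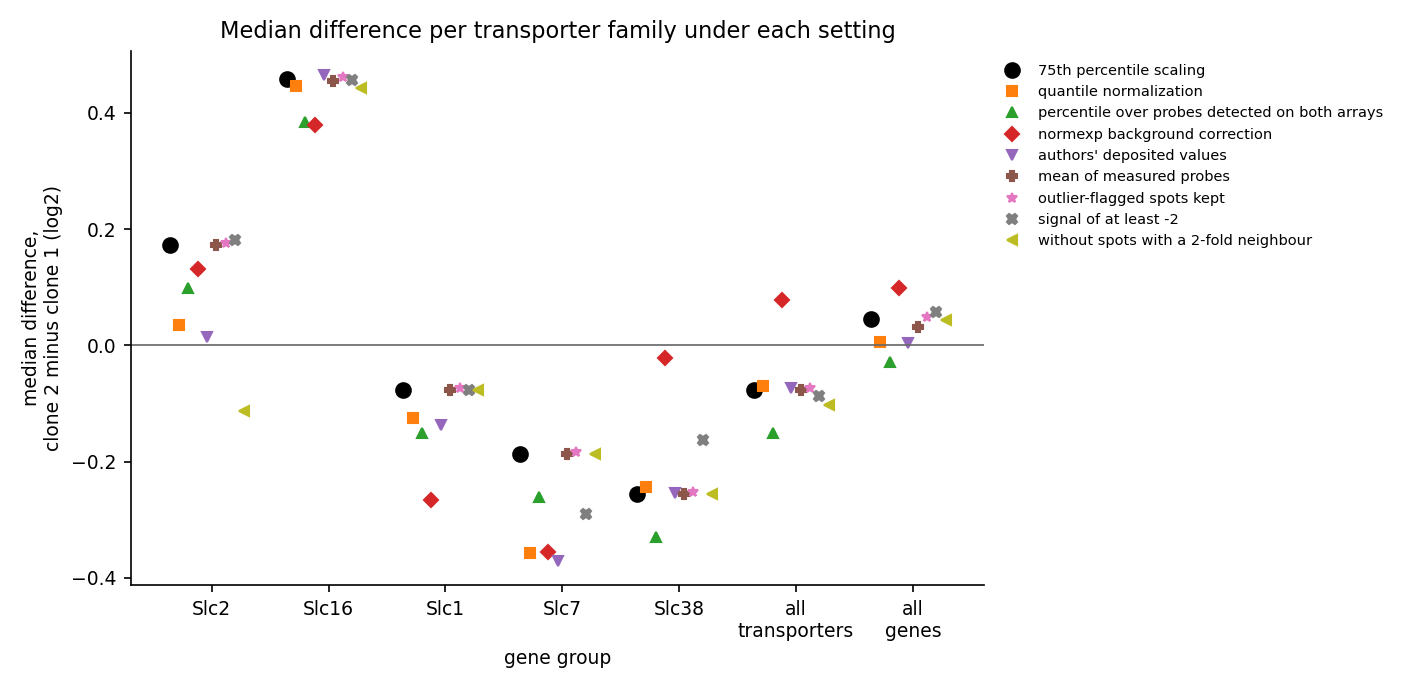
Median difference between clones (log2, clone 2 minus clone 1) of the genes measured on both arrays, for each transporter family, for all transporters and for all genes, with 1 symbol per processing setting. Slc16 stays between 0.38 and 0.47, Slc7 between -0.37 and -0.18, and Slc2 lies between -0.11 and 0.18, on both sides of 0.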

How the data were processed

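One 1-colour Agilent whole mouse genome array (design 026655) per clone was read with Feature Extraction 11.0.1.1 (protocol GE1_1100_Jul11), per the file headers. The processed signal intensity of each spot had been corrected for background and spatial trends by that software before the authors deposited it, per the file headers. A second table of intensity values, normalized by the authors in a way not given in the sources used here, served only as an alternative. Across probes, its log2 values correlated with the processed signals at a Pearson r of 1.00 for clone 2 and 0.999 for clone 1. Its column medians were 65.9 and 65.8 on the linear scale.

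Outlier-flagged spots were left out, log2 signals were averaged per probe, and each array was then scaled to its own 75th percentile over 39272 probes, which lay at 726 in clone 2 and 819 in clone 1. A probe was detected when at least 50% of its spots carried the software's flag for a signal well above background. The probe brightest on average stood for its gene, and a gene with any detected probe counted as detected. Differences are clone 2 minus clone 1. With 1 array per clone no test between clones exists, and no p-value or standard error is given. The fold threshold was 2. For a gene detected on 1 array, the fold is a lower bound against the higher of its own dim value and the lowest detected signal of that array (-4.55 in clone 2 and -4.54 in clone 1). The number of arrays limits the precision.

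By the naming rule any transporter could be named, and those at least 2-fold apart, those with probes over 1 log2 apart and 21 listed ones are given in full. Members and lists were chosen with earlier results of these data known. Names came from the array files and, for all other genes, from RefSeq tables of GRCm38.p6. Alternatives covered scaling, background correction, detection rule, probe choice, outlier flags and dim probes. The normexp correction used an offset of 50, so its values, medians and counts reflect that offset as well as the background. Python 3.11.15, pandas 2.3.3, R 4.3.3 and limma 3.58.1 were used. The 2-fold calls were tested on data simulated from the clone 1 array, with known changes in detected genes of 1 probe each. The simulation kept that array's detection flags. It therefore does not bear on genes detected on 1 array, such as Slc2a5 and Slc38a4. The single values of 2 genes are not reported here, although they count in the totals.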

Additional observations from a re-analysis of the deposited data

How the results depend on the processing

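No paired analysis was possible because each clone has 1 array and the clones share a single replicate number. No array could be left out for the same reason. Across 389 values recomputed under 11 alternatives, 323 moved by less than the noise between spots (or, for counts, stayed within 1.5 times), 66 moved further and no difference of at least 2-fold changed sign. The causes were not tested. Of the transporters at least 2-fold apart (1 per direction), 2 were higher in clone 2 and 3 in clone 1 with the positive and significant flag. At 1.5-fold, 3 were higher in clone 2. None was higher in clone 1 (0) with normexp correction or among signals of at least -2. With negative controls plus 2 SD, 9 transporters passed in clone 2 alone and 1 in clone 1 alone. That cutoff is set from each array's own negative controls. With the positive and significant flag, 0 passed in clone 1 alone and 8 in neither. The shares of all genes under these alternative rules are not given here, so the counts cannot be read as particular to the transporters.

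The median of all transporters was 0.078 with normexp correction, which also gave -0.27 for Slc1, -0.36 for Slc7 and -0.021 for Slc38. Slc2 and Slc16 together (0.31) had 0.21 with quantile normalization, 0.21 with the authors' deposited values and 0.19 without spots that had a 2-fold neighbour, an alternative added after seeing the data, as were the detection rules and the mean of probes for single genes. Slc2 alone (0.17) had 0.035, 0.015 and -0.11 under these. Slc7 (-0.19) had -0.36 with quantile normalization, -0.37 with the authors' values and -0.29 at signals of at least -2. With normexp correction the partner subunits had -0.25. Glycolysis genes (0.21) had -0.00067 with quantile normalization, 0.10 with normexp correction and -0.0074 with the authors' values, and genes of glutamine, serine and cystine use (0.17) had 0.056, 0.011 and 0.039. Signal over background limits the dim probes: 34 of the 59 transporters have a measured difference, and 21 were detected on neither array.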
